A study of Mus musculus with 24 samples.

Results

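The genes described here are the Klotho family and the receptors and ligands of fibroblast growth factors (FGFs) in mouse calf muscle. They are the co-receptor genes Kl and Klb, the receptor genes Fgfr1, Fgfr2, Fgfr3 and Fgfr4, and the ligand genes Fgf1, Fgf2, Fgf6 and Fgf7. They were named by symbol, with no measured value in the rule, although earlier results of these data were known. Each symbol matched 1 Ensembl gene, which gave 10 of the 55385 genes in the count files.

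RNA was sequenced from the gastrocnemius of female C57BL/6J mice in 6 groups of 4 libraries, and replicates of a group were separate mice. Young Sham and young GFP mice were 3 to 6 months old, old GFP and old AAV-Kl mice 21 to 24 months, and oldest-old GFP and oldest-old AAV-Kl mice 27 to 29 months. GFP and AAV-Kl mice had received an adeno-associated virus through the tail vein, carrying either green fluorescent protein or mouse alpha-Klotho, and for uninjured mice the methods give a dose of 3e8 vector genomes per mouse and tissue collection 14 days later. The labels do not say what the sham treatment was, and the study's methods for sequencing do not name that group. A liver promoter drives the vector's Klotho, whose coding sequence was altered in its codons and fused to a human secretion signal and a tag, so reads on Kl in muscle are no measure of which mice carried it. Mice with overt disease had been left out of the study. The comparisons ask how the genes differed with age among GFP mice, how they differed after the Klotho vector at each of the older ages, and, with the sham group, how far the young level depends on the young group taken.

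Sequencing put 36415886 to 59733985 reads of each library on genes, and the median library held 49486060.5. Levels are given as CPM, the reads of a gene in each 1000000 reads on genes after TMM normalization, and replicates are listed in the order 1 to 4 of the labels. The label of skeletal muscle was checked on 8 genes of fast myofibres, all of which were detected in each library, and Myh4, a fast myosin heavy chain, was the most abundant of them.

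Alpha-Klotho, the product of Kl, is made mostly by kidney tubules and the choroid plexus, and as a membrane protein it lets FGF receptors bind FGF23, the bone hormone that lowers blood phosphate and vitamin D. Proteases release its outer part into the blood, where it is known as a circulating factor that declines with age. Beta-Klotho, the product of Klb, does the same for FGF21 and FGF15 in fat and liver, whereas the paracrine FGFs bind their receptors together with heparan sulfate and signal through Ras and MAP kinases, a path that drives the division of muscle satellite cells.

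All 10 genes passed the filter on low counts, which kept 17803 genes with a level of about 0.202 CPM, or 10 reads at the median depth, in at least 4 libraries. Kl reached that level in 11 libraries, 8 of them young, and so entered the test through the groups in which it was highest. Per kilobase of exon, the mean level over the 24 libraries was highest for Fgfr1, at 9.79 CPM per kb, followed by the ligand gene Fgf1 at 8.39 CPM per kb. On the same scale Fgf2 stood at 2.61 CPM per kb, Fgf7 at 1.50 and Fgf6 at 1.29. Both the receptor genes Fgfr4 and Fgfr3 lay lower, at 0.749 and 0.707 CPM per kb. Klb at 0.294, Fgfr2 at 0.114 and Kl at 0.0241 CPM per kb came last. Kl, Klb and Fgfr2 are therefore low-count genes here. Kl had 0 to 33 reads in a library and fewer than 10 in 13 of the 24 libraries, and Klb had 0 to 371 reads. Fgfr2 had 6 to 318 reads, and for each of the other 7 genes the library with the fewest reads held at least 82.

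**Figure D1:**
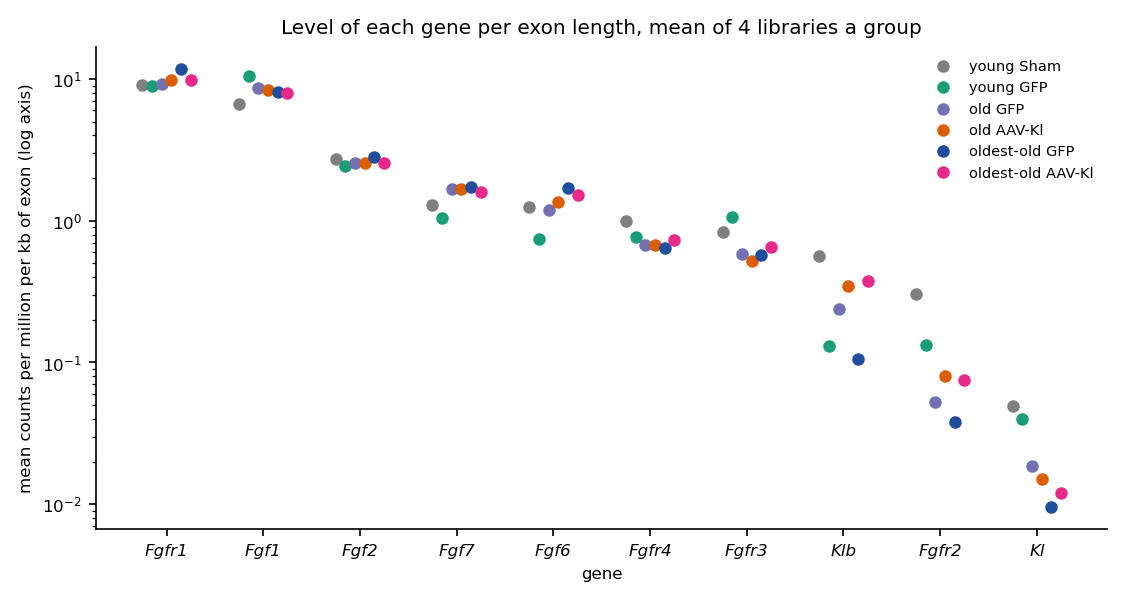
Mean level of each of the 10 genes in each group, in CPM per kb of exon on a log axis, with 1 point per group. Fgfr1 and Fgf1 lie highest and Kl lowest in each of the 6 groups.

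A gene was called when the p from edgeR's quasi-likelihood test, adjusted over all 17803 genes, was under 0.05. Between old and young GFP mice 2 of the 10 genes were called, where 4.7% of all genes tested were: Fgfr3 fell and Fgf7 rose. Between oldest-old and young GFP mice 4 of the 10 were called, against 14.9% of all genes: Kl and Fgfr3 fell, and Fgf6 and Fgf7 rose. The 4 young GFP libraries serve in both comparisons. DESeq2 called 3 genes (6.89% of all genes), Fgf6 being added, and 4 genes (17.4%) in these comparisons. From old to oldest-old GFP mice edgeR called 0 of the 10 genes (0.00562% of all genes). Fgf6 alone had an unadjusted p under 0.05 there (12% of all genes), and DESeq2 called 0 of the 10 (0.674%).

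**Figure D2:**
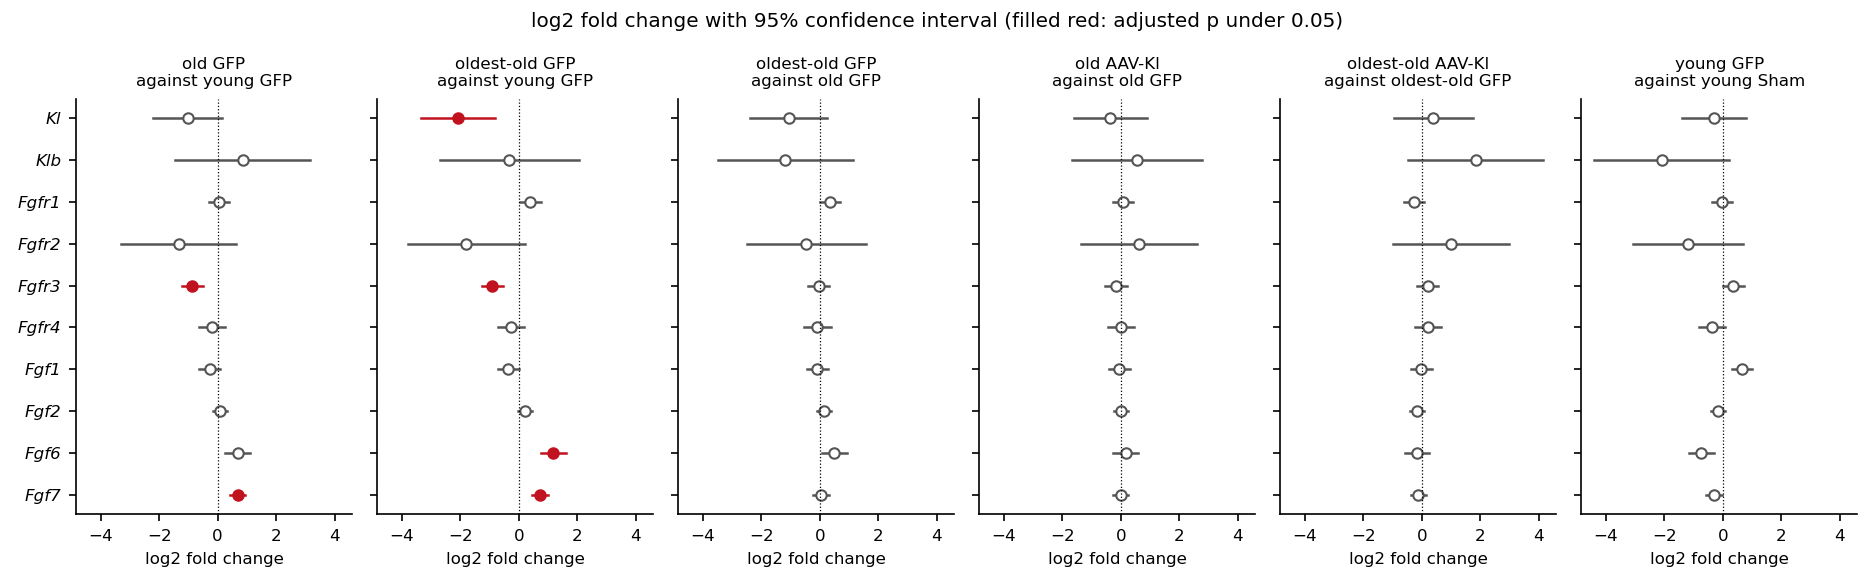
Log2 fold change of each of the 10 genes in each comparison, with bars for the 95% confidence interval of edgeR's fit and filled points for adjusted p under 0.05. Filled points appear only in the comparisons of old and oldest-old with young GFP mice, for Fgfr3 and Fgf7 in both and for Kl and Fgf6 in the latter.

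Kl (ENSMUSG00000058488.7), the alpha-Klotho gene on chromosome 5, had 0.709, 0.523, 0.395 and 0.210 CPM in the 4 young Sham libraries, from 33, 27, 20 and 11 reads. In young GFP libraries it had 0.328, 0.410, 0.336 and 0.411 CPM. Old GFP libraries held 0.206, 0.240, 0 and 0.252 CPM and oldest-old GFP libraries 0.0176, 0.145, 0.131 and 0.0623 CPM, the latter from 1, 6, 6 and 4 reads. Each of the 8 GFP libraries of the older ages thus lay below each of the 4 young GFP libraries, and old GFP replicate 3 had no read, which at its depth allows up to 0.0846 CPM. Such limits, set at 3 reads, cover counting error only. Old AAV-Kl libraries held 0.0699, 0.159, 0.140 and 0.190 CPM and oldest-old AAV-Kl libraries 0.156, 0.0821, 0.0383 and 0.175 CPM. These values overlapped those of the GFP mice of the same age and none of them reached a young GFP library. By group mean the order was young Sham (0.459 ± 0.210 CPM, SD, n = 4), young GFP (0.371 ± 0.0455), old GFP (0.175 ± 0.118), old AAV-Kl (0.140 ± 0.0508), oldest-old AAV-Kl (0.113 ± 0.0637) and oldest-old GFP mice (0.0889 ± 0.0597), and of neighbours in it only young GFP and old GFP mice did not overlap.

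Kl fell from young to oldest-old GFP mice by 2.09 on the log2 scale (SE 0.61, n = 4 per group, edgeR adjusted p = 0.0253), with a 95% confidence interval of -3.36 to -0.83. Without the filter on low counts the log2 change was -2.10 (adjusted p = 0.0450). From young to old GFP mice the log2 difference was -1.03 ± 0.56 (SE; adjusted p = 0.332), although the groups did not overlap (two-sided exact permutation test, p = 0.0286, the smallest that 4 libraries against 4 allow). Without old GFP replicate 3, the library with no read, it was -0.67 (adjusted p = 0.526). Against the young Sham libraries the oldest-old level fell by 2.40 on the log2 scale (adjusted p = 0.0143). The fall to oldest-old mice rested on few reads: without oldest-old GFP replicate 1 the log2 change was -1.75 (adjusted p = 0.0789) and without replicate 4 -1.96 (adjusted p = 0.0780). Leaving out young GFP replicate 2 or 4 gave adjusted p-values of 0.0512 and 0.0571, with a log2 change of -2.05 each time. Without young GFP replicates 1 and 3 together the log2 change was -2.26 (adjusted p = 0.0821). Kidney tubules are the best known site of Kl, and 6 markers of them summed to 0.0644 to 0.549 CPM over the 24 libraries, and none of them passed the filter. In bulk RNA, fewer cells of a type and less RNA per cell cannot be told apart.

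Oldest-old GFP replicates 1 and 4, which had the fewest Kl reads of their group, also had the most RNA of red blood cells. The 6 erythroid markers, with Hbb-bs the most abundant and none at 0, summed to 605, 116, 90.2 and 665 CPM in oldest-old GFP and to 63.1, 64.2, 71.2 and 101 CPM in young GFP libraries. The sums were 270.1, 74.6, 40.6 and 69.5 CPM in young Sham, 138, 96.4, 150.2 and 135 CPM in old GFP, 485, 362, 56.7 and 99.5 CPM in old AAV-Kl and 153, 180.3, 128 and 106 CPM in oldest-old AAV-Kl libraries. The library with the highest sum of its group had the lowest Kl of the group in old GFP (replicate 3) and old AAV-Kl mice (replicate 1), the highest Kl in young Sham (replicate 1) and young GFP mice (replicate 4), and neither in oldest-old mice of both vectors. All 6 markers rose from young to oldest-old GFP mice, with the largest log2 changes for Slc4a1 (5.21), Alas2 (2.67), Hbb-bt (2.60) and Hbb-bs (2.35). Without replicates 1 and 4 the Kl difference from young GFP mice was -1.42 on the log2 scale (adjusted p = 0.293). The part of this RNA in the Kl result was not tested.

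**Figure D3:**
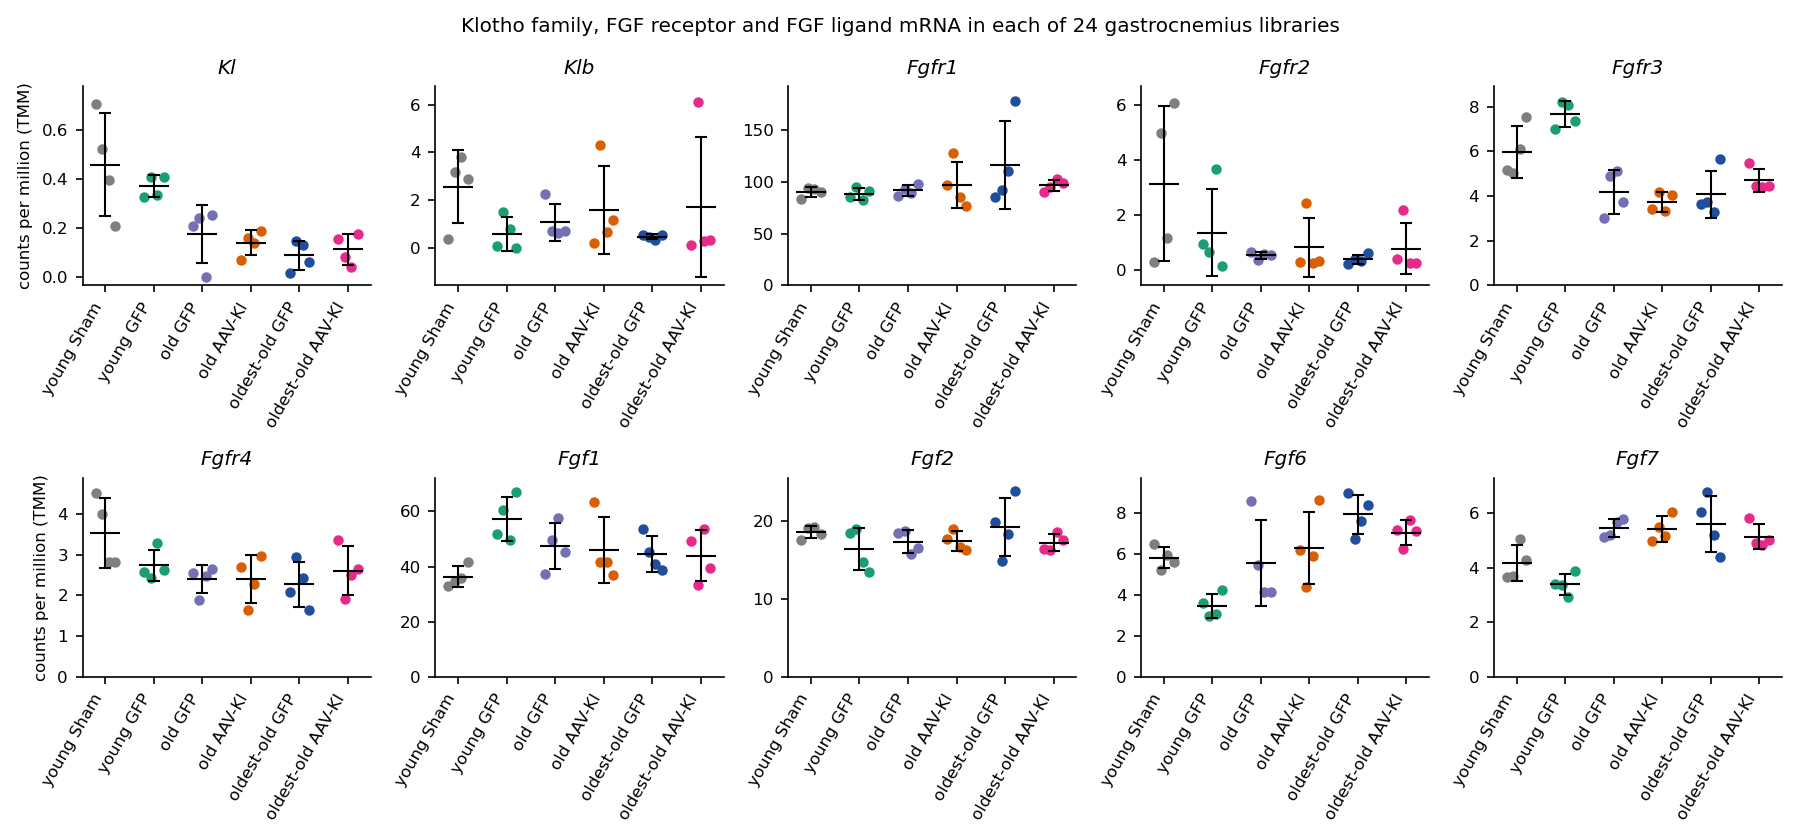
Level of each of the 10 genes in CPM, 1 panel per gene, with 1 point per library and a line at the mean and bars for the SD of each of the 6 groups. Kl lies highest in the young groups, Fgfr3 highest in young GFP mice, and Fgf6 and Fgf7 lowest in young GFP mice.

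The genes that differed with age are shown with the start of their genes, since Kl and Fgfr3 fell and Fgf6 and Fgf7 rose. The windows reach from 250 bases before to 50 bases after a start and come from RefSeq (build GRCm38.p6), which had windows for 8 of the 10 genes and none for Fgfr1 and Fgf1. Each is the strand of the gene, here the plus strand, read 5′ to 3′. Capitals mark the E-box CANNTG, the short sequence that MyoD and other bHLH factors can bind, which reads as CANNTG on both strands. The windows are chr5:150952357-150952656 for Kl, chr5:33721474-33721773 for the start of Fgfr3 that lies farther upstream, chr6:127015292-127015591 for Fgf6 and chr2:126034408-126034707 for Fgf7.
Kl: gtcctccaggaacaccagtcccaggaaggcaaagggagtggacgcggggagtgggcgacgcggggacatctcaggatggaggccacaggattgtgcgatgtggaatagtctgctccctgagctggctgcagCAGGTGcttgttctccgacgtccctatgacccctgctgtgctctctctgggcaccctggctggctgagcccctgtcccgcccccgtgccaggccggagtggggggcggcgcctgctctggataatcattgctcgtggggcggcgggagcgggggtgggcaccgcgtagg
Fgfr3: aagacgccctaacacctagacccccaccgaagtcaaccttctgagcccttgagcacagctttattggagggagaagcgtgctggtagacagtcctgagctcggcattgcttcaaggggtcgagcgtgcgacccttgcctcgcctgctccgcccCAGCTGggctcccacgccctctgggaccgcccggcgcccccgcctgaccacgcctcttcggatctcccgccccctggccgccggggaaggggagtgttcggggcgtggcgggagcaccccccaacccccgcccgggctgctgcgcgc
Fgf6: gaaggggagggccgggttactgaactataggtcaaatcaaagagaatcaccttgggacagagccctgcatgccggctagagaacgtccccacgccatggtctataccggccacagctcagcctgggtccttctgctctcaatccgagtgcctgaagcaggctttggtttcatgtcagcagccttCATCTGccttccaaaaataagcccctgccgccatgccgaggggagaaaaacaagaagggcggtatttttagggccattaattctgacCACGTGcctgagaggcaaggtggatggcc
Fgf7: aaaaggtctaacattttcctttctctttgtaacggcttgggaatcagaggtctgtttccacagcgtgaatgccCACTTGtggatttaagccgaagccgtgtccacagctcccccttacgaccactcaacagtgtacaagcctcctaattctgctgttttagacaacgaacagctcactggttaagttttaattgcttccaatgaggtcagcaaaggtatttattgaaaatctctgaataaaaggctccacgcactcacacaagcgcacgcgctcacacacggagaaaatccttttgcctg
The E-box of Kl is CAGGTG and begins 119 bases before the start, at -119, and that of Fgfr3 is CAGCTG at -97. Fgf6 has E-boxes at -66 and at 22 and Fgf7 has 1 at -177, counting the first base of the gene as 1. Of all 32851 RefSeq windows, 72.3% hold a CANNTG, 16.3% a CAGCTG and 20.2% a CAGGTG on either strand. The GC box GGGCGG, on either strand, occurs 3 times in the Kl window, 4 times in the Fgfr3 window, once in Fgf6 and in none of the Fgf7 window, and 35.7% of all windows hold it. The windows of Kl and Fgfr3 have 67.3% and 69.7% G or C, those of Fgf6 and Fgf7 55.0% and 45.7%, and the median of all windows is 52.7%. A second Fgfr3 window has 73.0%, no E-box and 2 GC boxes. The windows of members that were not called have 43.7% (Fgfr2), 48.3% (Klb), 62.7% (Fgf2) and 65.3% (Fgfr4, with 4 GC boxes), so called and uncalled members overlap in this share. A match of letters describes the window and does not show a binding site.

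Klb (ENSMUSG00000029195.10), the beta-Klotho gene on chromosome 5, varied widely between mice of the same group. It had 0.387, 3.19, 3.83 and 2.88 CPM in young Sham and 0.0936, 1.52, 0.783 and 0 CPM in young GFP libraries. In old GFP libraries it had 2.25, 0.703, 0.620 and 0.733 CPM and in oldest-old GFP libraries 0.545, 0.482, 0.327 and 0.561 CPM. A single library stood above the rest of its group among old GFP mice, replicate 1, and the 4 oldest-old GFP libraries all lay below the 4 old GFP libraries. In old AAV-Kl libraries the level was 0.210, 4.30, 0.659 and 1.18 CPM and in oldest-old AAV-Kl libraries 0.136, 6.09, 0.307 and 0.330 CPM. Replicate 2 was far above the other 3 in both of these groups. No comparison called Klb, and its log2 difference between old and young GFP mice was 0.85 ± 1.11 (SE, n = 4 per group), 0.18 without old GFP replicate 1 and 1.83 without young GFP replicate 2.

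Adipocyte markers were high in several of the same libraries. The 7 markers, with Plin4 the most abundant by mean level and none at 0 in any library, summed to 354, 855, 930.2 and 1205 CPM in young Sham and 481, 1065, 812 and 651 CPM in young GFP libraries. The sums were 592, 380.3, 618 and 556 CPM in old GFP and 511, 1564, 326 and 394 CPM in old AAV-Kl libraries. In oldest-old GFP libraries they were 445, 446, 359 and 801 CPM and in oldest-old AAV-Kl libraries 245, 956, 313 and 290.5 CPM. Old AAV-Kl replicate 2 and oldest-old AAV-Kl replicate 2 held the highest sum of their groups and the highest Klb. Without these 2 libraries the log2 difference of Klb between AAV-Kl and GFP mice went from 0.55 to -0.66 in old mice and from 1.84 to -0.89 in oldest-old mice, with adjusted p-values between 0.688 and 1.0 in the 4 fits. The highest sum and the highest Klb of a group also met in young GFP replicate 2 and oldest-old GFP replicate 4. They did not meet in young Sham mice, with the highest sum in replicate 4 and the highest Klb in replicate 3. In old GFP mice replicate 3 had the highest sum and the lowest Klb, and replicate 1 the highest Klb. Plin4 made 231, 379 and 339 CPM of the sums in replicates 2, 3 and 4 of that group. In replicate 1 Cfd was the most abundant marker instead, at 213 CPM, so the order of these sums depends on Plin4. Liver transcripts were also set beside Klb. The 12 liver plasma protein genes summed to 971 CPM in old GFP replicate 1 and to 4.29, 1.18 and 107 CPM in replicates 2 to 4. The highest liver sum and the highest Klb also met in young GFP replicate 2 (1.30 CPM), oldest-old GFP replicate 4 (0.919 CPM) and oldest-old AAV-Kl replicate 2 (2.30 CPM). They did not meet in young Sham or old AAV-Kl mice. The part of adipocyte or liver RNA in Klb was not tested.

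**Figure D4:**
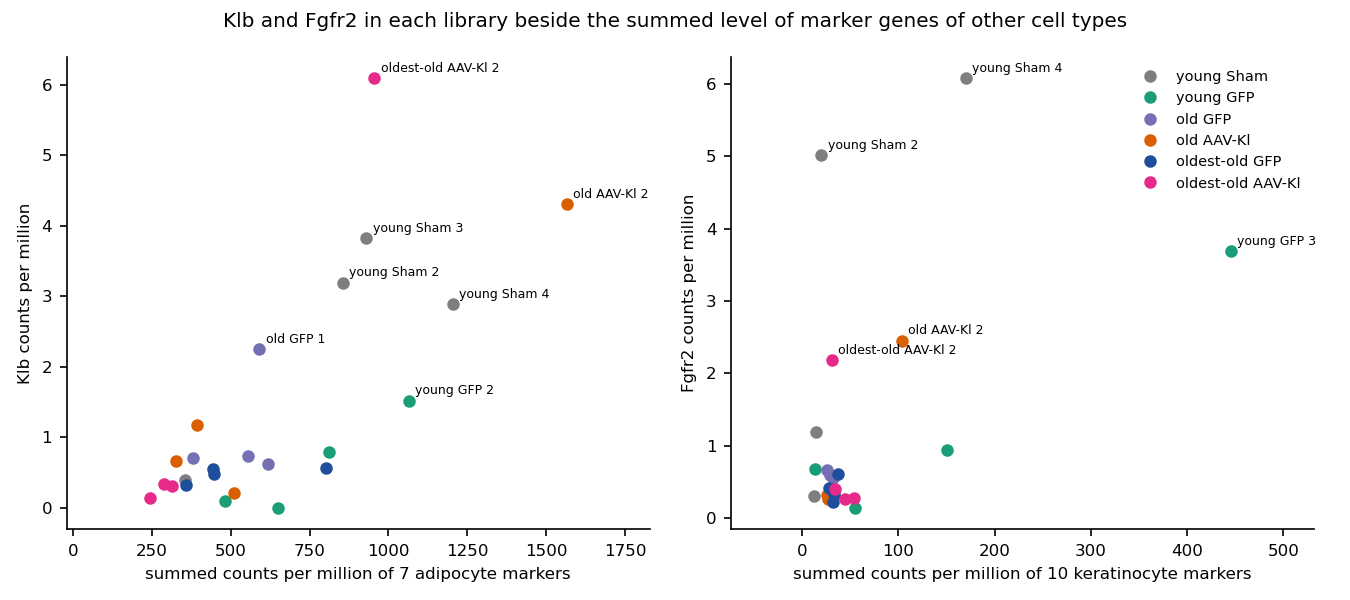
Level of Klb against the summed adipocyte markers, and of Fgfr2 against the summed keratinocyte markers, in CPM with 1 point per library and a colour per group. The libraries with the highest Klb lie among those with high adipocyte sums. Young Sham replicate 4, young GFP replicate 3 and old AAV-Kl replicate 2 have high Fgfr2 and high keratinocyte sums. Young Sham replicate 2 and oldest-old AAV-Kl replicate 2 have high Fgfr2 and low keratinocyte sums.

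Among the receptors, Fgfr1 (ENSMUSG00000031565.18), the main receptor of cultured muscle precursor cells, had group means between 88.3 ± 5.72 CPM (SD, n = 4) in young GFP and 116 ± 42.4 CPM in oldest-old GFP mice. A single library, oldest-old GFP replicate 4 at 177.9 CPM, lay above all others. The log2 difference between oldest-old and young GFP mice was 0.40 ± 0.17 (SE; adjusted p = 0.111) and was not called in the fit of all libraries. It was called without oldest-old GFP replicate 1, with a log2 change of 0.51 (adjusted p = 0.0496), whereas without replicate 4, the high library, it was 0.10 (adjusted p = 0.656). Fgfr4 (ENSMUSG00000005320.9), a receptor of differentiating myoblasts, ran from 1.63 to 4.51 CPM over the 24 libraries. Its highest group mean was 3.53 ± 0.855 CPM (SD, n = 4) in young Sham and its lowest 2.27 ± 0.553 CPM in oldest-old GFP mice, and the ranges of neighbouring groups overlapped. The log2 difference of Fgfr4 between oldest-old and young GFP mice was -0.27 ± 0.22 (SE; adjusted p = 0.425).

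Fgfr2 (ENSMUSG00000030849.18), whose epithelial form is the receptor for FGF7, was low in most libraries and high in a few. Young Sham libraries had 0.301, 5.01, 1.18 and 6.08 CPM and young GFP libraries 0.936, 0.675, 3.69 and 0.145 CPM. Old GFP libraries had 0.670, 0.370, 0.592 and 0.549 CPM and oldest-old GFP libraries 0.229, 0.410, 0.327 and 0.607 CPM. The old and oldest-old GFP values lay close together, while the young groups spanned the whole range of the gene. Among AAV-Kl mice, old libraries had 0.303, 2.45, 0.260 and 0.316 CPM and oldest-old libraries 0.409, 2.18, 0.268 and 0.272 CPM, replicate 2 being the high one each time. No comparison called Fgfr2, and the log2 difference between oldest-old and young GFP mice was -1.79 ± 0.96 (SE; adjusted p = 0.219). Without old AAV-Kl replicate 2 and oldest-old AAV-Kl replicate 2 its log2 difference after AAV-Kl went from 0.62 to -0.89 in old mice and from 0.996 to -0.32 in oldest-old mice.

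Keratinocyte markers, 10 genes with Trp63 the most abundant by mean level, stood out in some of the libraries with high Fgfr2. They summed to 12.7, 20.2, 14.2 and 170.1 CPM in young Sham, where 3, 1, 0 and 0 of the 10 were at 0. In young GFP libraries the sums were 150.4, 14.04, 445 and 55.0 CPM, with 0, 5, 0 and 6 markers at 0. Young Sham replicate 4 and young GFP replicate 3 had the highest sum and the highest Fgfr2 of their groups. So had old AAV-Kl replicate 2 and oldest-old GFP replicate 4. Old GFP replicate 1 and oldest-old AAV-Kl replicate 2 had the highest Fgfr2 and the lowest sum of their groups. In the latter library Trp63 alone made 27.3 CPM of the sum. Young Sham replicate 2 had a high Fgfr2 and a low sum. In old GFP libraries the sums were 26.4, 31.0, 28.6 and 32.7 CPM and in old AAV-Kl libraries 33.7, 104, 26.9 and 26.1 CPM. Oldest-old GFP libraries had 32.3, 27.8, 32.8 and 37.4 CPM and oldest-old AAV-Kl libraries 33.9, 30.9, 45.2 and 53.8 CPM. In oldest-old against young GFP mice 4 of these markers fell in the fit of all libraries, Krt14, Krt5, Lor and Krt10, with adjusted p-values from 0.0361 to 0.0473, and young GFP replicates 1 and 3 held most of the young GFP sums. Without young GFP replicates 1 and 3 the log2 difference of Fgfr2 from young GFP mice was 0.39 for old GFP mice and -0.08 for oldest-old GFP mice, in place of -1.33 and -1.79. Replicate 3 made most of this change: without it alone the differences were -0.13 and -0.59, and without replicate 1 alone -1.48 and -1.94. The part of skin RNA in Fgfr2 was not tested.

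Fgfr3 (ENSMUSG00000054252.18), on the same chromosome as Kl and Klb and best known for restraining bone growth, had 7.02, 8.22, 8.07 and 7.37 CPM in young GFP libraries. Old GFP libraries had 3.02, 4.92, 5.10 and 3.75 CPM and oldest-old GFP libraries 3.64, 3.74, 3.29 and 5.65 CPM. All 8 of these lay below each young GFP library. Young Sham libraries, at 5.15, 5.03, 6.12 and 7.55 CPM, overlapped the young, old and oldest-old GFP mice. The AAV-Kl libraries had 3.43, 4.18, 3.31 and 4.07 CPM in old mice and 5.49, 4.45, 4.41 and 4.46 CPM in oldest-old mice, each within the range of the GFP mice of its age. In order of group means the gene went from 7.67 ± 0.572 CPM (SD, n = 4) in young GFP through 5.96 ± 1.16 in young Sham to 3.75 ± 0.441 in old AAV-Kl mice, and in that order the range of each group overlapped that of the next.

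Fgfr3 fell by 0.87 on the log2 scale from young to old GFP mice (SE 0.17, adjusted p = 0.00645, lower in 4 of 4 libraries) and by 0.91 to oldest-old GFP mice (SE 0.17, adjusted p = 0.00201, lower in 4 of 4). With young Sham as the young group the log2 differences were -0.51 for old mice (adjusted p = 0.104), which was not called, and -0.54 for oldest-old mice (adjusted p = 0.0466). Old GFP replicates 1 and 4, the lowest of their group in Fgfr3, had the highest levels of liver transcripts of that group. Among young Sham and old AAV-Kl mice this did not hold: young Sham replicate 4, with the highest liver sum of its group at 26.2 CPM, had its highest Fgfr3, and old AAV-Kl replicate 4, with the highest sum of its group at 154 CPM, was not its lowest in Fgfr3. The 12 liver markers, with Alb the most abundant, summed to 971, 4.29, 1.18 and 107 CPM in old GFP and to 0.234, 1.30, 0.690 and 0.435 CPM in young GFP libraries. None of the 12 was at 0 in old GFP replicates 1, 2 and 4, and 6 were at 0 in replicate 3. All 12 rose from young to old GFP mice, Ahsg, Fgg, Ttr and Plg the most, with Fgg and Plg at 0 in each young GFP library. Without replicates 1 and 4 the log2 difference of Fgfr3 was -0.63 (adjusted p = 0.117). The part of liver RNA in the result was not tested. Reads were counted without regard to strand, and 13.9% of the exon bases of Fgfr3 are shared with the opposite-strand gene G630022F23Rik, as are 1.7% of those of Fgfr1 with Gm16159. Of the exon bases of Fgf2, 13.2% are shared with Gm43439 on the same and Nudt6 on the opposite strand, and of those of Fgfr2 3.0% with Ctbp2 on the same strand.

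Among the ligands, Fgf6 (ENSMUSG00000000183.6), which is expressed almost only in skeletal muscle, had 3.60, 2.97, 3.08 and 4.25 CPM in young GFP libraries. Old GFP libraries had 8.56, 5.46, 4.12 and 4.12 CPM and oldest-old GFP libraries 8.95, 6.73, 7.59 and 8.38 CPM. The oldest-old values all lay above the young GFP values, whereas old GFP replicates 3 and 4 overlapped them. Young Sham libraries had 6.46, 5.23, 5.96 and 5.62 CPM, above each young GFP library and below each oldest-old GFP library. In AAV-Kl libraries Fgf6 had 6.20, 4.37, 5.89 and 8.63 CPM in old and 7.14, 6.22, 7.65 and 7.11 CPM in oldest-old mice, and both groups overlapped the GFP mice of their age. Fgf6 rose from young to oldest-old GFP mice by 1.19 on the log2 scale (SE 0.21, adjusted p = 0.000913, higher in 4 of 4 libraries), but against young Sham mice the difference was 0.45 (adjusted p = 0.149) and was not called. To old GFP mice the log2 difference was 0.69 ± 0.21 (SE; edgeR adjusted p = 0.0608, DESeq2 adjusted p = 0.0326), and edgeR called it without old GFP replicate 3 at 0.80 (adjusted p = 0.0372) and without replicate 4 at 0.79 (adjusted p = 0.0431). Without replicate 1, the highest library of that group, the difference was 0.38 (adjusted p = 0.319). Between old and oldest-old GFP mice it was 0.50 ± 0.20 (adjusted p = 0.354).

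Fgf7 (ENSMUSG00000027208.14), the keratinocyte growth factor that mesenchymal cells make, had 3.42, 3.38, 2.93 and 3.89 CPM in young GFP libraries. In libraries of old GFP mice it had 5.14, 5.20, 5.70 and 5.81 CPM and in oldest-old GFP libraries 6.06, 6.78, 5.21 and 4.41 CPM. Each of the 8 older libraries was above each young GFP library, and those of old and oldest-old mice overlapped. Young Sham libraries, at 3.67, 3.72, 5.07 and 4.30 CPM, overlapped young GFP and oldest-old GFP mice and lay below each old GFP library. AAV-Kl libraries had 4.99, 5.50, 5.19 and 6.04 CPM in old and 5.82, 4.91, 4.85 and 5.01 CPM in oldest-old mice. Fgf7 rose by 0.68 on the log2 scale in old GFP mice (SE 0.13, adjusted p = 0.00382) and by 0.72 in oldest-old GFP mice (SE 0.13, adjusted p = 0.00103), higher in 4 of 4 libraries each. Without young GFP replicates 1 and 3, which had the high keratinocyte sums, the difference in old mice was 0.56 (adjusted p = 0.112) and was not called, and that in oldest-old mice was 0.60 (adjusted p = 0.0404), and the part of those cells was not tested.

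Fgf1 (ENSMUSG00000036585.16) and Fgf2 (ENSMUSG00000037225.13), broadly acting ligands without a classical secretion signal, were not called with age. Fgf1 had 51.8, 60.3, 49.5 and 67.0 CPM in young GFP and 32.9, 34.7, 35.8 and 41.8 CPM in young Sham libraries, so the young groups did not overlap. The old and oldest-old libraries of all 4 groups ran from 33.2 to 63.5 CPM and overlapped both. Against young GFP mice the log2 difference of Fgf1 was -0.27 for old GFP mice and -0.36 for oldest-old GFP mice, and against young Sham mice it was 0.38 and 0.30. Fgf2 had group means between 16.4 ± 2.71 CPM (SD, n = 4) in young GFP and 19.3 ± 3.71 CPM in oldest-old GFP mice, and each pair of groups overlapped in the comparisons made. Its log2 difference between these groups was 0.23 ± 0.12 (SE; adjusted p = 0.186), and it was called without oldest-old GFP replicate 2, the lowest of its group, at 0.34 (adjusted p = 0.0389). Without replicate 4, the highest, it was 0.09 (adjusted p = 0.657).

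The Klotho vector was compared with the GFP vector at each of the older ages. In old mice edgeR called 0 of the 10 genes, as of all genes tested (0%). None of the 10 had an unadjusted p under 0.05 there (2.15% of all genes did), and DESeq2 called 0 of them and 0% of all genes. In oldest-old mice edgeR called 0 of the 10 (0.0112% of all genes), 0 had an unadjusted p under 0.05 (8.08% of all genes) and DESeq2 called 0 (0.146%). For the genes with 82 or more reads in each library the log2 differences lay between -0.16 for Fgfr3 and 0.17 for Fgf6 in old mice, and between -0.27 for Fgfr1 and 0.20 for Fgfr3 in oldest-old mice. Kl itself differed by -0.35 ± 0.60 in old and 0.39 ± 0.65 in oldest-old mice (log2 ± SE, n = 4 per group), with 95% confidence intervals of -1.60 to 0.89 and -0.97 to 1.74. The difference between the effects at the 2 ages was tested as an interaction: edgeR called 0 of the 10 genes (0.00562% of all genes), 0 had an unadjusted p under 0.05 (5.76%) and DESeq2 called 0 (0.00562%). These p-values do not show that the levels were equal, and the intervals of Klb, -1.67 to 2.77 and -0.48 to 4.16, are wide.

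The young reference mattered for several of these genes. Between young GFP and young Sham mice edgeR called 0 of the 10 (0.472% of all genes), while 4 had an unadjusted p under 0.05 (13.4%): Fgfr3, Fgf1, Fgf6 and Fgf7. DESeq2 called 2 of the 10 (1.6% of all genes), Fgf1 at 0.68 on the log2 scale (adjusted p = 0.0120) and Fgf6 at -0.72 (adjusted p = 0.0485). By edgeR, Fgf1 differed by 0.66 ± 0.17 (SE; adjusted p = 0.0933) and Fgf6 by -0.74 ± 0.21 (adjusted p = 0.116). Each of the 4 young GFP libraries was above the young Sham libraries in Fgf1 and below them in Fgf6 (two-sided exact permutation test, p = 0.0286 for each, the smallest possible, among 60 such tests). Fitted on the young libraries alone, edgeR called both (1.06% of all genes), with adjusted p-values of 0.0303 and 0.0487. With young Sham in place of young GFP as the young group, 0 of the 10 genes were called in old GFP mice (3.67% of all genes) and 3 in oldest-old GFP mice (11.6%): Kl, Fgfr3 and Fgf7. Fgf6 then differed by -0.06 in old and 0.45 in oldest-old mice, and Fgf7 by 0.38 (adjusted p = 0.0919) and 0.42 (adjusted p = 0.0352). The sham treatment and any other difference between the young groups cannot be told apart.

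**Figure D5:**
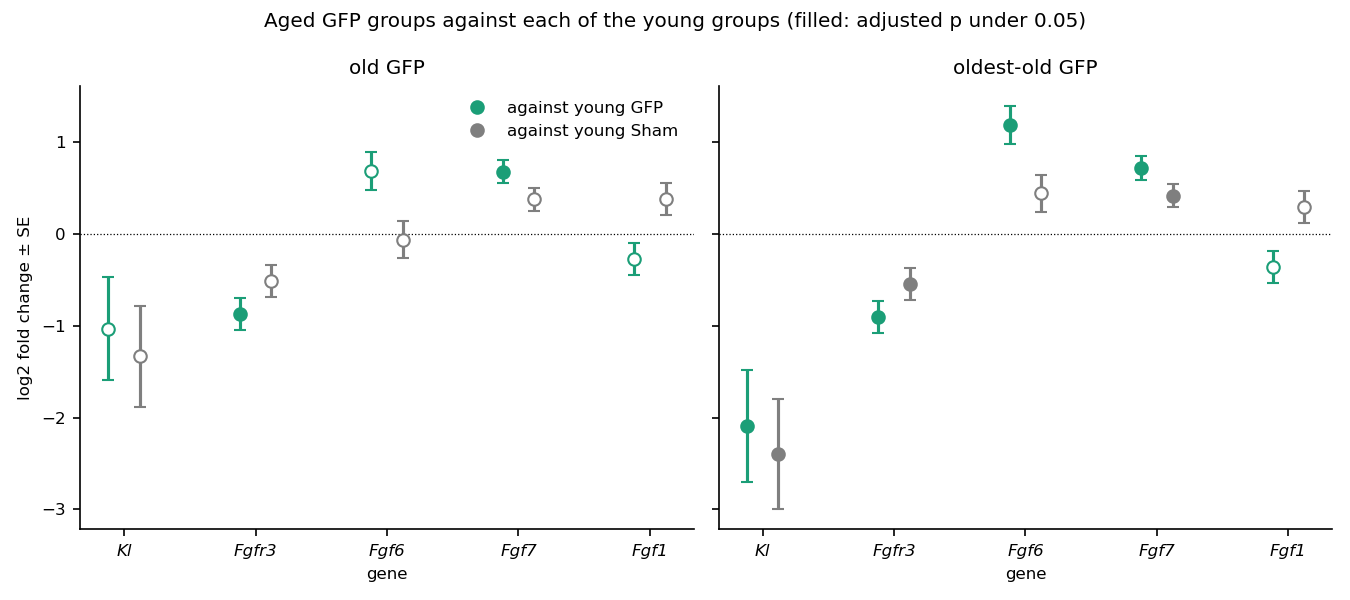
Log2 fold change of Kl, Fgfr3, Fgf6, Fgf7 and Fgf1 in old and oldest-old GFP mice, against young GFP (green) and against young Sham mice (grey), with bars for the SE of edgeR's fit and filled points for adjusted p under 0.05. Kl, Fgfr3 and Fgf7 keep their sign with either reference, Fgf1 changes sign at both ages, and Fgf6 changes sign in old mice.

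Over the 24 libraries, which share groups and differ in depth, genes like each member in log2 CPM were found by Pearson's r, as a description. Kl was close to Ak3 (r = 0.840, Spearman's rho = 0.899), an adenylate kinase of mitochondria. Klb was most like Rbm47 (r = 0.954, rho = 0.941), an RNA-binding protein of epithelia. Fgfr2 was most like the epithelial genes Prss8 (r = 0.932, rho = 0.867) and Cldn4 (r = 0.914, rho = 0.843). Fgfr3 was followed by Sfpq (r = 0.875, rho = 0.850), a splicing factor, and Tinagl1 (r = 0.851, rho = 0.840), a basement membrane protein. Fgf6 was closest to Six4 (r = 0.873, rho = 0.878), a homeobox factor of muscle, and Fgf2 to Fzd4 (r = 0.816, rho = 0.773), a Wnt receptor. Fgf1 paired best with Ttl (r = 0.832, rho = 0.817), Fgf7 with Gm10647 (r = 0.874, rho = 0.778), Fgfr1 with Serinc3 (r = 0.882, rho = 0.714) and Fgfr4 with Aptx (r = 0.794, rho = 0.787).

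Of the hormones that need a Klotho protein, Fgf15 and Fgf23 were near the limit of detection in this muscle. Fgf15 had 0 reads in all 24 libraries and Fgf23 had 41 reads in total, at most 7 in a library, so neither was tested. Fgf21, which stressed muscle can secrete, had 339 reads in total and none in the 4 young Sham libraries, with 0 to 3 reads in young GFP, 2 to 67 in old GFP, 3 to 41 in old AAV-Kl, 4 to 23 in oldest-old GFP and 21 to 52 in oldest-old AAV-Kl libraries. No comparison called it. Against young GFP mice its log2 difference was 3.40 ± 1.18 (SE; adjusted p = 0.112) in old and 2.59 ± 1.22 (adjusted p = 0.162) in oldest-old GFP mice, with 67 of the 77 reads of old GFP mice in a single library, and between oldest-old AAV-Kl and GFP mice its log2 difference was 1.70 ± 0.91 (SE; adjusted p = 0.651). Lctl, the third gene of the Klotho family, had 1 to 29 reads per library and was not called. Of the sheddases that release Klotho, Adam10 rose by 0.22 in old (adjusted p = 0.0382) and 0.26 on the log2 scale in oldest-old GFP mice (adjusted p = 0.00634), and it was -0.29 on that scale in young GFP against young Sham mice (adjusted p = 0.0331). Bace1 fell by 0.40 in oldest-old GFP mice (adjusted p = 0.0294), and Adam17 was called in no comparison.

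Other genes of FGF signalling were read from fixed lists, in oldest-old against young GFP mice, where the median log2 difference of all genes was 0.03 and 14.9% of all genes were called. Of 11 other secreted FGFs 6 were tested and 1, Fgf9, rose, by 1.12 (adjusted p = 0.00103), as it did in old GFP mice by 0.69 (adjusted p = 0.0485). Of 14 genes that relay the signal Gab1 and Shc1 rose, by 0.41 and 0.19, and Hras fell by 0.39. Among 13 feedback and target genes 12 had a positive log2 difference, with a median of 0.29, and 2 rose: Spred3 by 1.06 (and by 1.08 in old GFP mice) and Spry2 by 0.62, both brakes on the Ras path. In young GFP against young Sham mice 11 of the 13 had a negative log2 difference, with a median of -0.15. Of 16 genes that make heparan sulfate or bind FGFs 2 fell, Fgfbp3 by 0.89 (and by 0.91 in old GFP mice) and Ndst1 by 0.21. Fgf13 rose by 0.29, 1 of 3 intracellular FGF relatives tested, and 6 tested genes of phosphate and vitamin D handling had a median log2 difference of -0.04, 3 being positive and 3 negative.

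Some markers of the cells that make or answer these FGFs were called between oldest-old and young GFP mice. The same 14.9% of all genes is the background. Of 10 myogenic genes Myod1 rose by 1.68 (adjusted p = 0.00325; in old GFP mice by 1.36) and Myog by 1.60 (adjusted p = 0.00469), while the satellite cell genes Chrdl2 and Megf10 fell by 0.85 and 0.65. Their sum was 140.2, 118, 138 and 165 CPM in young GFP and 225, 168, 212 and 315 CPM in oldest-old GFP libraries, with Myf6 the most abundant and none at 0, and their part in the rise of Fgf6 was not tested. Among 8 myofibre genes Myh1 rose by 0.64, and Myh4 and Pvalb fell by 0.33 and 0.65. Of 10 genes of fibro-adipogenic progenitors, mesenchymal cells of muscle, Col1a1 alone was called, and it fell by 1.77. Their sum, with Gsn the most abundant and none at 0, was 1453, 2241, 1430.0 and 1465 CPM in young GFP and 1335, 1729, 1756 and 1156 CPM in oldest-old GFP libraries, which overlapped, and the part of these cells in the rise of Fgf7 was not tested.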

How the data were processed

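The authors aligned the reads to GRCm38 with STAR and deposited its read counts per gene, not normalized, as 1 file per library; the column without regard to strand was used. Between 23.03% and 25.28% of the reads of a library were not counted on a single gene. The annotation release is not stated: 54487 of the 55385 identifiers occur with their version in GENCODE M21, which gave symbols and exon lengths. In R 4.3.3, edgeR 4.0.16 (filterByExpr, TMM, glmQLFit and glmQLFTest, Benjamini-Hochberg over 17803 genes) was fitted to all 24 libraries with a mean per group, and every adjusted p is from edgeR unless DESeq2 1.42.0 is named. The SE is the log2 fold change over the square root of the test's F. The fit was tested on simulated data. Exact permutation tests were two-sided, on CPM. Alternatives were DESeq2, its size factors, no filter, the strand columns, fewer libraries, young Sham as reference, a replicate block and leaving out libraries. All members were named in every comparison. From each list, called genes were named, up to 4 with the largest change, and Fgf15, Fgf21, Fgf23, Lctl and the sheddases in any case. For likeness, the 2 genes with the highest r on log2 CPM were found for each member. The members and lists were chosen with earlier results of these data known. Correlations used a prior count of 2. E-boxes and GC boxes were found by exact letters.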

Additional observations from a re-analysis of the deposited data

Results flagged for a closer look

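In 6 of the 60 groups of 4 libraries tested (10 genes in 6 groups, 10%), 1 library lay far from the other 3 by Dixon's criterion, and chance gives about 1 in 20. Klb in old GFP replicate 1 was 2.252 CPM, against 0.620 to 0.733 CPM in the other 3. Klb in oldest-old AAV-Kl replicate 2 was 6.091 CPM, against 0.136 to 0.330 CPM. Fgfr2 was 2.451 CPM in old AAV-Kl replicate 2, against 0.260 to 0.316 CPM, and 2.184 CPM in oldest-old AAV-Kl replicate 2, against 0.268 to 0.409 CPM. Fgfr3 was 5.488 CPM in oldest-old AAV-Kl replicate 1, against 4.41 to 4.47 CPM, and Fgf7 was 5.819 CPM in the same library, against 4.85 to 5.01 CPM.

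The log2 difference of Fgfr3 between AAV-Kl and GFP mice was -0.16 at the old age, where all 4 AAV-Kl libraries lay below the mean of the GFP mice, and 0.20 at the oldest-old age, where all 4 lay above it. The difference between these effects was 0.3626 (SE 0.25), and edgeR's test of it gave an adjusted p of 0.896.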

How the results depend on the processing

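Of 128 recomputed counts of called members, 123 were equal to the reported count or within 1.5 times of it, and of 214 recomputed log2 fold changes of Kl and of called members 200 kept their direction and their side of the threshold. Another 11 kept their direction but missed the threshold, and 3 changed sign, all for Kl where it was not called. Among the 11 were Kl in oldest-old against young GFP mice in 4 fits without 1 library and in 2 other settings. Many counts came from comparisons with 0 called members, where an equal count says little. An equal count can also hold other genes: without oldest-old GFP replicate 1 it was 4 in oldest-old against young GFP mice, with Fgfr1 called and Kl not. Members that were not called changed sign in 79 of 1062 refits (7.44%). With young Sham as the young group the count between old and young mice went from 2 (4.7% of all genes) to 0 (3.67%). Without young GFP replicates 1 and 3, or without old GFP replicates 1 and 4, sets of libraries chosen after seeing the data, it was 1 each time (0.768% and 1.44% of all genes). Between young GFP and young Sham mice it was 2 with DESeq2 (1.6% of all genes) and 2 in the fit of only the groups compared (1.06%), in place of 0 (0.472%). The log2 difference of Kl between AAV-Kl and GFP mice was 0.10 in old mice without old GFP replicates 1 and 4, and -0.29 in oldest-old mice without oldest-old GFP replicates 1 and 4. The cause was not tested.

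Leaving out 1 library at a time gave 2 to 3 called members between old and young GFP mice (2.02% to 3.73% of all genes), 3 to 5 between oldest-old and young GFP mice (9.17% to 15.1%), and 0 to 0 in the other 5 comparisons. The log2 change then ranged from -2.41 to -1.75 for Kl in oldest-old against young GFP mice, from -0.97 to -0.76 (old) and -1.13 to -0.83 (oldest-old) for Fgfr3, from 1.10 to 1.29 for Fgf6 in oldest-old, and from 0.59 to 0.74 (old) and 0.62 to 0.80 (oldest-old) for Fgf7. For Kl between young GFP and young Sham mice, where it was not called, the range was -0.53 to 0.0124, the last without young Sham replicate 1.

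With the replicate number as a replicate block, 3 members were called between old and young GFP mice (Fgf6 being added; 3.99% of all genes), 4 between oldest-old and young GFP mice (14.1%) and 0 in the other comparisons. The labels do not pair the libraries, and residuals of same-numbered libraries correlated between -0.533 and 0.201. Depth limits Kl most: 13 of 24 libraries held fewer than 10 of its reads.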

Other observations

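Markers of other cell types were counted beside the FGF genes. Between oldest-old and young GFP mice, where 14.9% of all genes were called, 2 of 8 endothelial markers rose: Cldn5, a tight junction protein of vessels, by 1.43 on the log2 scale (SE 0.24, adjusted p = 0.000664) and Emcn by 0.50 (SE 0.14, adjusted p = 0.0187). Of 7 markers of smooth muscle and pericytes 1 rose, Kcnj8, the potassium channel of pericytes, by 0.77 (SE 0.16, adjusted p = 0.00314), while 4 of the 7 had a negative log2 difference and the median was -0.02. All 6 erythroid markers rose, with a median log2 change of 2.48. The 7 macrophage markers all had a positive log2 difference from young GFP mice in old (median 0.78) and oldest-old GFP mice (median 0.83). All 7 were negative in young GFP against young Sham mice (median -0.81), and 0 were called in these comparisons. Their sums were 39.4 to 64.1 CPM in young GFP, 55.0 to 115 CPM in old GFP and 68.5 to 95.5 CPM in oldest-old GFP libraries. The part of macrophage RNA in the results was not tested.

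Transcripts of 12 liver plasma proteins, with Alb the most abundant, summed to 20.6, 6.18, 8.50 and 154 CPM in old AAV-Kl and to 0.193, 17.8, 4.67 and 26.2 CPM in young Sham libraries. In oldest-old GFP libraries the sums were 0.879, 0.603, 0.894 and 0.919 CPM.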
